A study of Mus musculus with 2 samples.

Results

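Cytosolic ribosomal protein genes, which encode the protein part of the 2 ribosomal subunits, were examined in the hippocampus of mice fed astaxanthin (ASX) and of control mice. Members were all genes whose mouse symbol starts with Rpl or Rps followed directly by a digit, without the S6 kinases. That rule uses names alone, but it was chosen with earlier results of these data known. The arrays carried 115 probes for 80 such genes. Of these genes, 79 passed the background filter, which asks for a probe clearly brighter than its surroundings in both dyes on each array, out of 23604 genes and transcripts measured in all. The 79 comprised 43 genes of the large (60S) subunit, 30 genes of the small (40S) subunit, 5 paralogs, and Rps19bp1, which the name rule takes although its product binds ribosomal protein S19 and is not itself a ribosomal protein. The remaining gene, Rpl39l, a testis-enriched paralog of Rpl39, had 2 probes and neither passed. Members lay on 19 chromosomes.

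The ASX group comprised male C57BL/6J mice whose powdered chow held 0.5% by weight of an ASX powder for 4 weeks. That powder contained 2% astaxanthin, a carotenoid from the alga Haematococcus pluvialis. The control group comprised male C57BL/6J mice on the same chow with placebo powder, that is 0% of the ASX powder. The mice were 11 weeks old, weighed 26 to 28 g, and were acclimatized for 1 week before the feeding. Total hippocampal RNA of both groups was hybridised together on each of 2 two-colour arrays. The ASX RNA carried Cy5 on array 1 and Cy3 on array 2. Each array is titled with 4 mice, the labels do not say how their RNA was combined, and the arrays were taken as a dye swap of 1 pair of RNA samples. They are 1 replicate of the diet comparison, no test of the diet was possible, and an SD between them is technical. Between 75.8% and 78.2% of spots stood well above background in each RNA and array, and 0 were saturated. Of 15 hippocampal neuron markers 13 were measured, all but Dsp and Lct, with a summed level of 94934 and 101770 in the ASX RNA and of 95752 and 95640 in the control RNA. In this bulk tissue, fewer cells of a type and less RNA per cell cannot be told apart.

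Ribosomal proteins assemble with ribosomal RNA in the nucleolus and cytoplasm into the subunits that decode mRNA and join amino acids. Their mRNAs are among the most abundant of any cell, and they are usually produced together in near-equal amounts. Most of them begin with a terminal oligopyrimidine (TOP) tract, a C at the cap followed by a run of pyrimidines, through which mTOR signalling and the protein LARP1 control their translation. In neurons, ribosomal proteins are made in the soma and, for some of them, also in dendrites and axons.

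The sequence at the transcription start, which the arrays do not measure, held pyrimidine runs at some members and not at others. RefSeq start sites of build GRCm38.p6 were listed for 60 of the 79 measured members, with 72 starts in all. A C at the annotated start followed by 4 bases that are each C or T, on the gene strand, stood at 12 of the 72 starts (16.7%), as at 2.51% of all 32851 starts in the table. A run of 8 or more such bases between 25 bases before and 50 after the start was found at 69.4% of member starts and at 27.2% of all. The core of the ETS family site, CGGAAG or its reverse complement CTTCCG, was searched on both strands within 250 bases before to 50 after the start. It occurred at 61.1% of member starts and at 16.9% of all. These letter matches can overlap each other and are a description of the windows. The 8 starts below span 10 bases before to 20 after the start, 5′ to 3′, with runs of 5 or more pyrimidines in capitals. They were chosen to show both patterns: in the first 6 the annotated start lies inside a pyrimidine run, and in the last 2 it does not.
Rps6 (chr4:86857348-86857377, minus strand): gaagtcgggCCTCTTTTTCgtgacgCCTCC
Rpl38 (chr11:114668570-114668599, plus strand): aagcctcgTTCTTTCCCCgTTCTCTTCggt
Rpl28 (chr7:4792955-4792984, plus strand): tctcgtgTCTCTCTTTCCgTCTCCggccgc
Rpl27a (chr7:109519185-109519214, plus strand): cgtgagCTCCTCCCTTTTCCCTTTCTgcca
Rps27 (chr3:90213629-90213658, minus strand): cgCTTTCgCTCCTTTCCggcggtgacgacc
Rps18 (chr17:33955646-33955675, minus strand): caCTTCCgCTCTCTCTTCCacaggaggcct
Rpl22 (chr4:152325716-152325745, plus strand, the first of 2 listed starts): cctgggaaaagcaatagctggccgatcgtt
Rps23 (chr13:90923112-90923141, plus strand): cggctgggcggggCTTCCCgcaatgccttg

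After loess normalization the ribosomal protein genes lay close to equal levels in the RNA of ASX and of control mice, while median centring and spike-in scaling, described further on, set them lower in the ASX RNA. The median log2(ASX / control) over the 79 genes, each taken from its brightest probe and averaged over both arrays, was -0.0091, a ratio of 0.994. Over all genes and transcripts it was -0.0042, and over those with a symbol -0.019. The highest mean was 0.12 for Rpl27a, a ratio of 1.09. At the low end, Rps19 had -0.13, a ratio of 0.915, and the means of all 79 lay within 1.2-fold. Of all genes and transcripts, 96.3% did so. The number of members was 50 with median centring (86.3% of all) and 1 with spike-in scaling (42.7% of all). The size rule asked for a difference of 1.5-fold or more toward the same diet on array 1 and on array 2. By it, 0 of 79 were higher and 0 lower, against 0.0635% and 0.0212% of all genes and transcripts. At 1.2-fold on each array 0 members were higher and 0 lower as well, against 1.44% and 0.314%. With median centring 2 members were lower at 1.2-fold (2.62% of all genes and transcripts), and with spike-in scaling 38 were (23.8% of all). With loess the mean was within 1.1-fold for 78 of the 79. With median centring it was for 1 (43.6% of all genes and transcripts), and with spike-in scaling for 1 (22.3% of all). With loess it was also within 1.1-fold for 82.3% of the other genes and transcripts, and for 92.7% of the 450 others that were as bright as most members, with a mean log2 brightness of 15 or more.

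**Figure D1:**
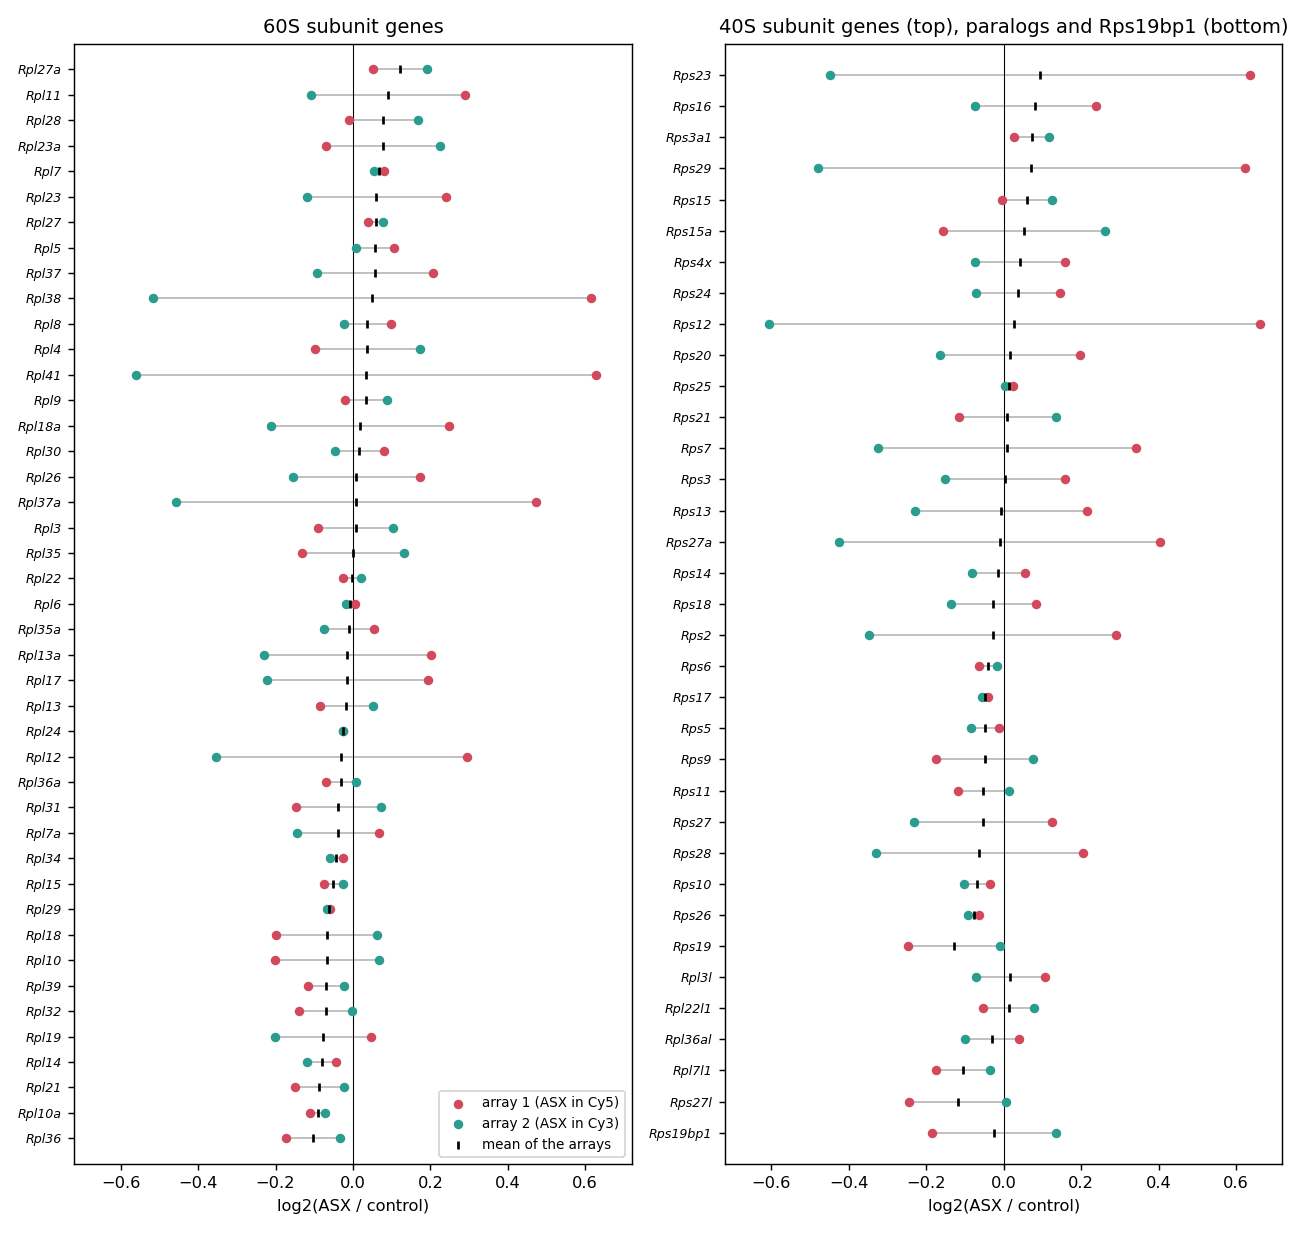
Log2(ASX / control) of 78 of the 79 measured genes on array 1 (red, ASX RNA in Cy5) and array 2 (green, ASX RNA in Cy3), with the mean of the arrays as a black tick. Means lie between -0.13 (Rps19) and 0.12 (Rpl27a), while the red and green points of Rps12, Rpl41, Rpl38, Rps29 and Rps23 lie far apart on opposite sides of 0.

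The 2 arrays pointed the same way for few members. Both arrays were above 0 for 6 of 79, against 22.2% of all genes and transcripts, and both below 0 for 18 of 79, against 23.0%. Among measured genes with a symbol, as all members are, these shares were 14.3% and 26.4%. The other 55 (69.6%) had opposite signs, as did 54.8% of all genes and transcripts and 59.3% of genes with a symbol. The 6 genes above 0 on both arrays were Rpl27a, Rpl27, Rpl7, Rpl5, Rps3a1 and Rps25, a protein of the 40S head that some viral RNAs need for their translation. Their means lay between 0.014 for Rps25 and 0.12 for Rpl27a.

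In the large subunit, the 43 genes had a median of -0.0064 and a range of -0.10 to 0.12. Rpl27a, a core component of the 60S subunit, had normalized log2 levels of 13.84 and 14.07 in the ASX RNA on arrays 1 and 2, against 13.79 and 13.88 in the control RNA. The ASX RNA was thus the brighter one on each array, with log2 ratios of 0.05 and 0.19 and a mean of 0.12 ± 0.10 (SD between arrays, n = 2). Rpl5 and Rpl11 encode the proteins that, with the 5S ribosomal RNA, bind Mdm2 when ribosome assembly is disturbed. Rpl5 had ratios of 0.11 and 0.0087. Rpl11 had 0.29 and -0.11, so that its mean of 0.09 came from array 1 alone. Rpl28, a 60S protein, had -0.010 and 0.17, and Rpl23a, which lies at the exit of the peptide tunnel, had -0.07 and 0.23. The ASX RNA was the brighter one for both of these on array 2 alone.

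At the low end of the large subunit stood Rpl36 and Rpl10a. Rpl36 had ratios of -0.17 and -0.03 with a mean of -0.10 ± 0.10, and Rpl10a had -0.11 and -0.07 with a mean of -0.09 ± 0.03 (SD between arrays, n = 2 each). Both were below 0 on each array, and Rpl10a belongs to the stalk past which the used tRNA leaves. Rpl10, one of the last proteins to join the subunit, had -0.20 and 0.07, with a mean of -0.07. Rpl3, which lies near the site of peptide bond formation, had a mean of 0.0074, and Rpl22, an RNA-binding protein of the subunit surface, had -0.0028.

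In the small subunit, the 30 genes had a median of -0.0084, and the highest mean was 0.09. Rps19, needed for 40S maturation and the gene most often altered in human Diamond-Blackfan anaemia, had normalized log2 levels of 13.42 and 13.56 in the ASX RNA, against 13.67 and 13.57 in the control RNA. The ASX RNA was the dimmer one on each array, by little on array 2, with ratios of -0.25 and -0.0095 and a mean of -0.13 ± 0.17 (SD between arrays, n = 2).

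Rps6, the substrate of the S6 kinases downstream of mTOR, had levels of 14.04 and 14.05 in the ASX RNA and of 14.10 and 14.07 in the control RNA. Its ratios were -0.06 and -0.018, with a mean of -0.04 ± 0.03 (SD between arrays, n = 2). Rps3, a protein of the mRNA entry channel, had 0.16 and -0.15, which leaves a mean of 0.0034. At the high end Rps23, which lies at the decoding centre, had 0.63 and -0.45 with a mean of 0.09. Rps16, whose tail reaches the tRNA in the peptidyl site, had 0.24 and -0.07 with a mean of 0.08, and Rps3a1 had 0.03 and 0.12 with a mean of 0.07. For Rps23 and Rps16 the arrays disagreed in sign.

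Paralogs of ribosomal proteins can replace or supplement their parent genes. Rps27l, which p53 induces, had a mean of -0.12, from -0.25 and 0.0062, while its parent Rps27 had -0.05, from 0.13 and -0.23. Rpl7l1, a large-subunit assembly protein, had -0.11, from -0.18 and -0.03, and its second measured probe had -0.14. Its parent Rpl7 had 0.07, and 2 further Rpl7 probes had -0.03 and -0.0028. Rpl22l1, whose mRNA is repressed by Rpl22 in mice, had 0.013, near the -0.0028 of Rpl22. Rpl36al had -0.03 and its parent Rpl36a also -0.03. Rpl3l, a paralog typical of heart and skeletal muscle, was dim and had 0.017. The widest gap of a paralog to its parent was that of Rpl7l1 to Rpl7, with a difference of -0.17 in mean log2 ratio. Rps19bp1 had -0.19 and 0.14, with a mean of -0.025.

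Ribosomal proteins that the name rule leaves out were also near equal in the 2 RNAs. They included the stalk proteins Rplp0, Rplp1 and Rplp2 and the 40S proteins Rpsa, Fau and Rack1. Of these 6, 0 passed the size rule and 0 lay on one side of 0 on both arrays. Their means were 0.10 for Rplp0, 0.09 for Fau, 0.022 for Rack1, 0.017 for Rplp2, 0.0032 for Rpsa and -0.015 for Rplp1.

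A second probe on the same arrays was past the brightness filter for 28 of the 79 genes, 34 further probes in all. The mean log2 ratio had the same sign in the brightest probe and the next for 20 of the 28, with a median absolute difference of 0.04. Across these 28 genes, whose probes share RNA and arrays, Pearson's r was 0.56 and Spearman's rho 0.53. Rpl36 had -0.10 and -0.12, and Rpl23a 0.08 and 0.08. The largest gap, 0.17, was at Rps25, where a much dimmer second probe had -0.15. None of the 34 further probes passed the size rule, and their means ran from -0.19 to 0.09. For scale, the 21 measured probes with 10 spots each and a mean log2 brightness of 13 or more varied from spot to spot with a median SD of 0.024 in the mean ratio. The SD over the 79 members was 0.06, but the SD from spot to spot leaves out differences between probes, labelling and RNA. These SDs therefore do not show whether the members differ from each other beyond noise.

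Over the members, the difference between the 2 arrays was spread more widely than their mean. The dye part, the turned ratio of array 1 minus that of array 2, divided by 2, is the log2 of Cy5 over Cy3 that remained after loess normalization. The dye part also holds any other difference between the arrays, which 1 dye swap cannot tell apart from the dye. It ran from -0.21 for Rps15a, a small-subunit protein, to 0.63 for Rps12 and had an SD of 0.19 over the 79 genes, against 0.06 for the diet part. Rps12, a 40S protein, had levels of 17.09 and 16.48 in the ASX RNA, against 16.43 and 17.08 in the control RNA. The RNA in Cy5 was thus the brighter one on both arrays, with turned ratios of 0.66 and -0.61, and the mean was 0.028. Rpl41, one of the smallest proteins of the ribosome, had 0.63 and -0.56, Rpl38, known in mice for its role in the translation of Hox mRNAs, 0.62 and -0.52, and Rps29, a small zinc-binding 40S protein, 0.62 and -0.48. On array 1 alone 5 members, these 4 and Rps23, would have passed 1.5-fold as higher in the ASX RNA (0.58% of all genes and transcripts), and on array 2 alone Rps12 as lower (0.199% of all).

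**Figure D2:**
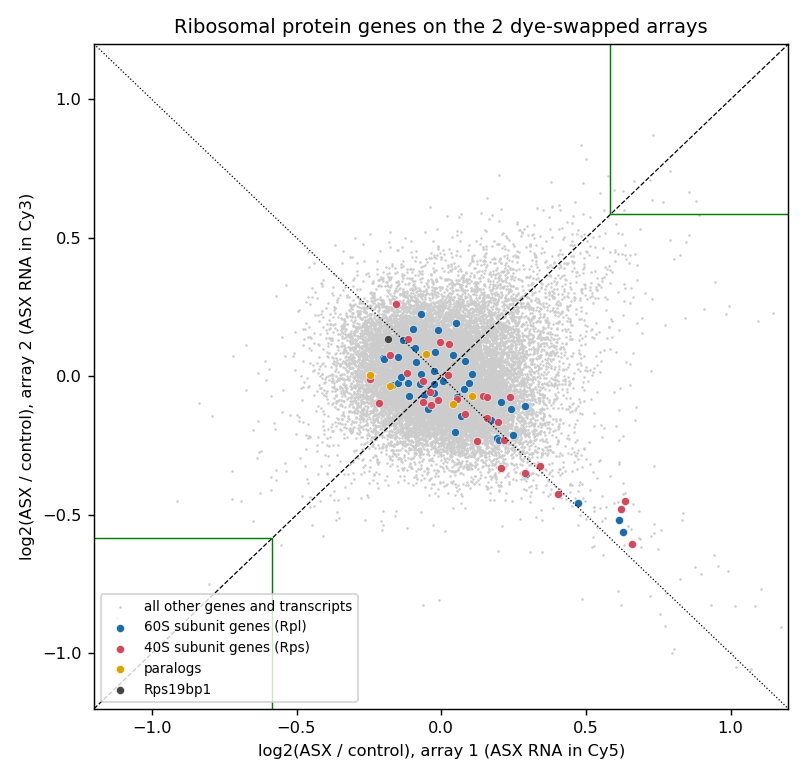
Log2(ASX / control) on array 1 (x axis) against array 2 (y axis) for 60S genes (blue), 40S genes (red), paralogs (yellow), Rps19bp1 (black) and all other genes and transcripts (grey, axes cut at 1.2). The dashed line marks equal ratios, the dotted line a pure dye difference, and the green corners the size rule, which 0 of the 79 members reach.

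Across the 79 members Pearson's r between the turned ratios of the arrays was -0.84 and Spearman's rho -0.73. These values are across genes, which share RNA, dyes and arrays and are not independent. Over all genes and transcripts the Pearson correlation was -0.029. The dye direction held 1 member, Rps12, at 1.5-fold or more in Cy5 on each array (0.131% of all genes and transcripts) and 10 members at 1.2-fold or more (1.0% of all). Opposite signs with Cy5 the brighter dye were seen for 35 members (27.2% of all genes and transcripts). Cy3 was the brighter dye for the other 20 with opposite signs (6501 of all 23604). These counts changed with the dye normalization. With the scanner's log ratios, Cy5 was the brighter dye for 17 members and Cy3 for 40 (6335 and 6438 of all). There 0 members reached 1.5-fold in Cy5 on each array (62 of all). At 1.2-fold, 3 did in Cy5 and 2 in Cy3 (510 and 300 of all).

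The dye part of the members moved with spot brightness, which depends on the probe as well as on the amount of transcript. Members were bright: 54 of 79 (68.4%) had a mean log2 brightness of 15 or more, as 2.14% of all genes and transcripts did, and they made up 10.7% of all that bright. Over the members, Pearson's r between brightness and dye part was 0.45 and Spearman's rho 0.67. Over all genes and transcripts they were 0.012 and -0.039. At a brightness of 16 or more, the 24 members had a median dye part of 0.20 and the 137 other genes and transcripts 0.36. Between 15 and 16 it was 0.010 for 30 members and 0.06 for 313 others, and between 14 and 15 it was -0.04 for 10 members and -0.03 for 692 others. The diet part had medians of 0.0089 for members and 0.04 for others at 16 or more, and of -0.0066 and 0.011 between 15 and 16. Between 14 and 15 they were -0.045 and 0.0011, between 13 and 14 -0.029 and -0.0044, and under 13 -0.060 and -0.0053. The members' diet part thus also rose with brightness, with Pearson's r of 0.31 and Spearman's rho of 0.37. Over all genes and transcripts these were -0.034 and -0.018. Rplp1, left out by the name rule, had the widest dye part of the ribosomal proteins, with turned ratios of 1.02 and -1.05.

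**Figure D3:**
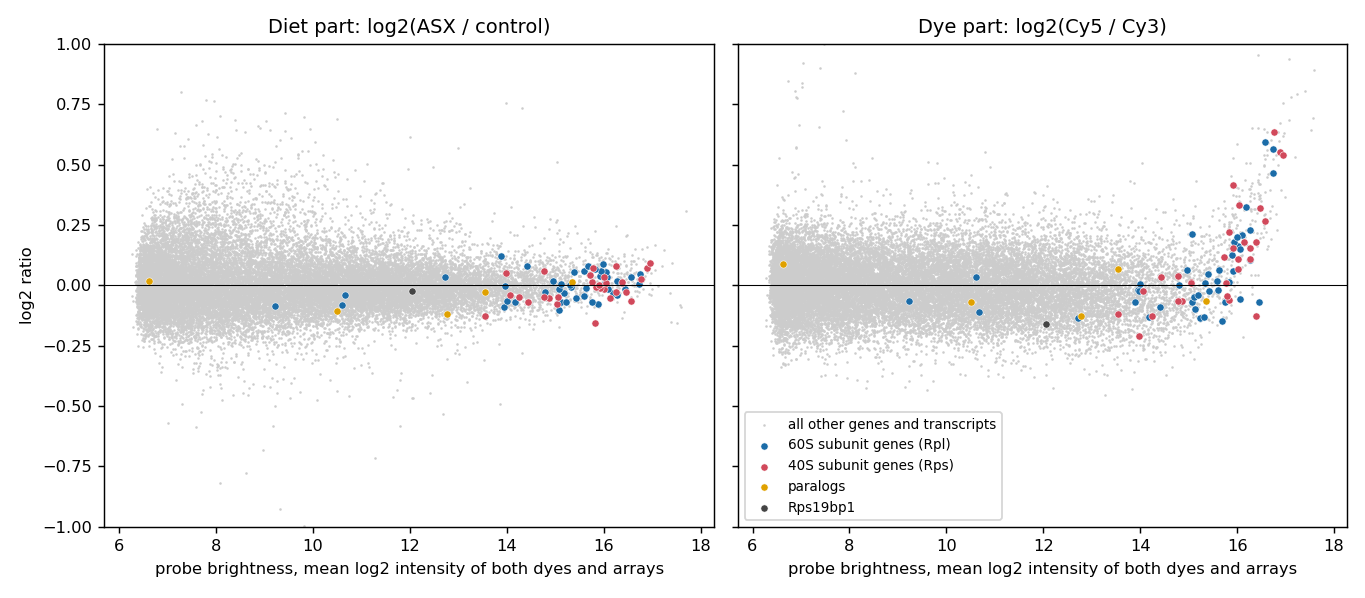
Mean log2(ASX / control), the diet part (left), and log2(Cy5 / Cy3), the dye part (right), against probe brightness in log2 units, for 60S genes (blue), 40S genes (red), paralogs (yellow), Rps19bp1 (black) and all other genes and transcripts (grey, y axis cut at 1). Members stay within 1.2-fold on the left, and on the right rise to 0.63 above a brightness of 16, where other genes and transcripts rise too.

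In the authors' deposited files, the scanner software's error model for single spots gave 0 of the 79 member probes a p-value under 0.01 on array 1 and 0 on array 2. By the authors' deposited values, 2.52% of all genes and transcripts had one on array 1 and 2.02% on array 2. The lowest deposited p-values were 0.070 on array 1 and 0.052 on array 2. Spread between mice is not in that model.

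The scaling decided where the members stood as a group. Loess, which removes a brightness-dependent dye trend on each array, gave the median of -0.0091, and -0.010 with the ribosomal protein spots left out of the fitted curve. The scanner's own log ratios gave -0.03, and a loess span of 0.7 gave 0.05. With each array centred on its median and no loess, the members had a median of -0.24, against -0.10 for all genes and transcripts. Of the members, 37 were then below 0 on both arrays (48.1% of all genes and transcripts) and 1, the dim Rpl3l, above (20.6% of all), against 18 below and 6 above with loess. Other genes and transcripts with a brightness of 15 or more also stood low with median centring, at -0.22. Scaling on the spike-in RNAs moved the median of all genes and transcripts to -0.30 and that of the members to -0.44. There 67 members were below 0 on both arrays (69.8% of all genes and transcripts) and 0 above (2.12% of all). With the loess span of 0.7 the counts were 8 below (25.1% of all) and 12 above (20.8% of all). Members minus all was -0.14 with median centring and with spike-in scaling, which differ only by a constant on each array. It was -0.0049 with loess and 0.056 with the loess span of 0.7. The size rule held 0 members in either direction under each of these scalings. Of all genes and transcripts it held 0.301% as higher and 0.0508% as lower with the scanner's log ratios, and 0.0593% and 0.0254% with the loess span of 0.7. With median centring it held 0.0508% in each direction, and with spike-in scaling 0.0169% as higher and 0.144% as lower.

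**Figure D4:**
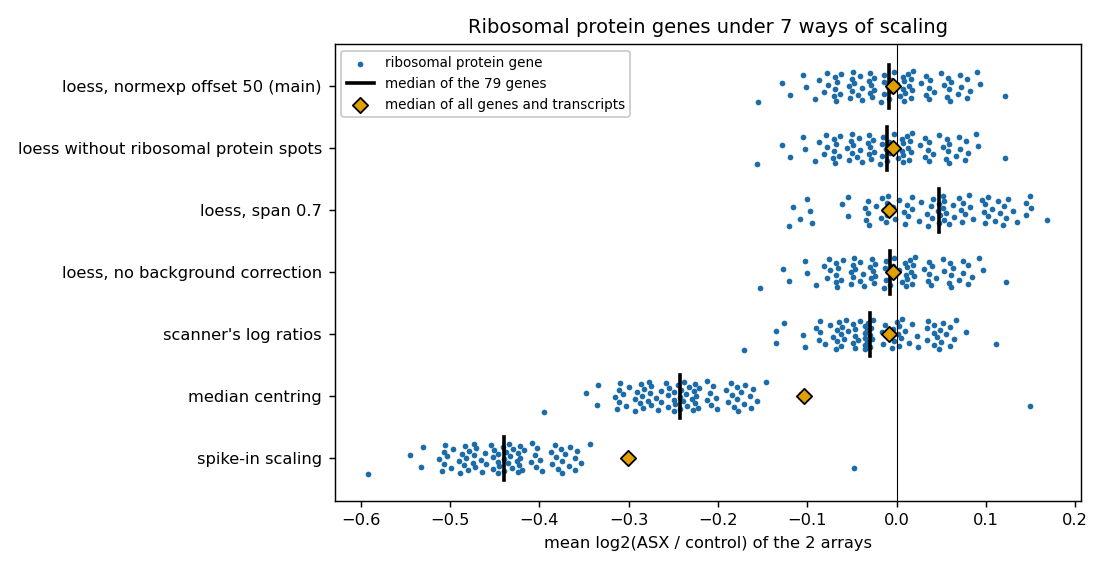
Mean log2(ASX / control) of the 79 genes (blue points) with their median (black bar) and the median of all genes and transcripts (yellow diamond) under 7 ways of scaling. The black bars lie between -0.03 and 0.05 with loess or the scanner's log ratios, at -0.24 with median centring and at -0.44 with spike-in scaling.

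Of the other genes that make and run ribosomes, 0 measured members of any list passed the size rule with loess. The list medians lay between -0.05 and 0.0067, against -0.019 over all genes with a symbol. The 76 mitochondrial ribosomal proteins, which build the separate ribosome of the mitochondrion, had a median of -0.04, with Mrps33 at 0.08 and Mrps6 at -0.24. Both arrays were below 0 for 21 of them (27.6%) and above 0 for 3 (3.95%), against the 26.4% and 14.3% of all genes with a symbol given earlier. The 38 measured ribosome biogenesis genes had a median of -0.05, with 13 below 0 on both arrays (34.2%) and 1 above (2.63%). Their highest was Gar1, a protein of the snoRNPs that guide pseudouridylation, with -0.05 and 0.42, and their lowest Rrp1b, a nucleolar protein, with -0.26 and -0.22. The 14 genes of RNA polymerase I and ribosomal DNA transcription had a median of -0.04, with Mycn at 0.07 and the initiation factor gene Rrn3 at -0.11.

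The 19 measured genes of translation elongation and other TOP mRNAs, the class to which ribosomal protein mRNAs belong, had a median of -0.011. Eef1a1, the elongation factor that brings aminoacyl-tRNA to the ribosome, had 0.47 and -0.29, a mean of 0.09, and Eif3k had 0.03 and -0.34, a mean of -0.15. The 22 translation initiation factors had a median of 0.0067, between -0.10 for Eif3i and 0.10 for Eif4a2. The 14 measured genes of the mTOR and S6 kinase list had a median of -0.0093, from 0.05 for Rps6ka3 to -0.17 for Deptor. Deptor, an mTOR inhibitor, had -0.27 and -0.07. The list also holds Pdk1, by its mouse symbol a pyruvate dehydrogenase kinase outside this pathway, and its mean of -0.014 enters the median. None of these lists was tested against the members.

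**Figure D5:**
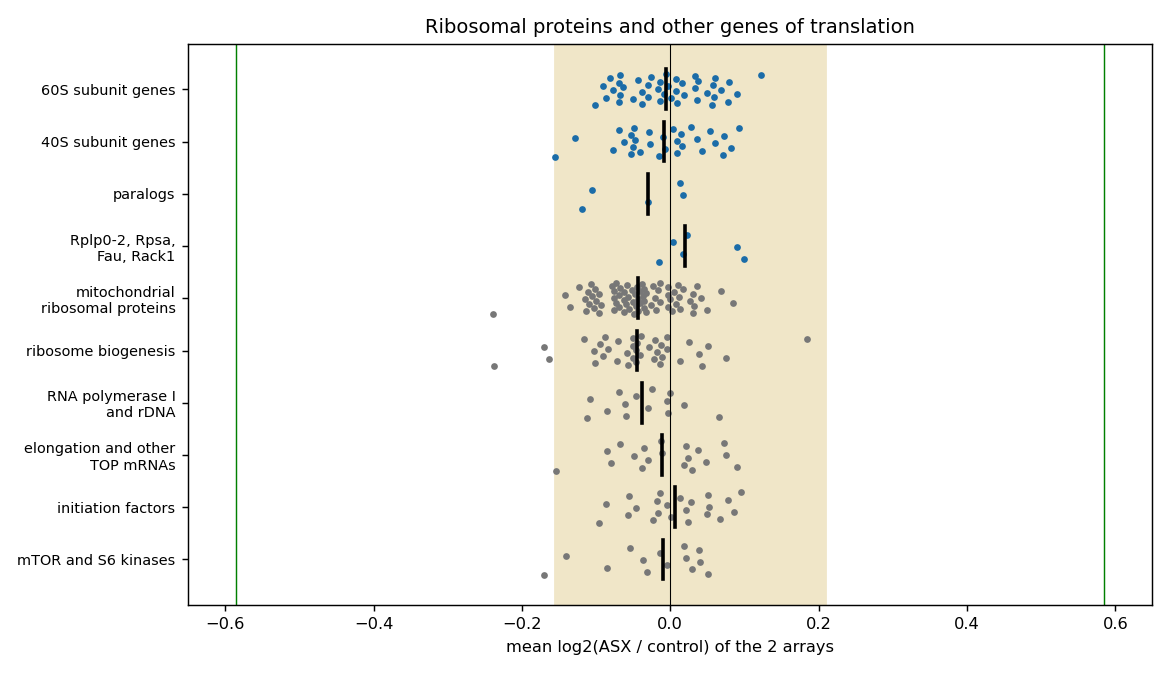
Mean log2(ASX / control) of the 2 arrays for ribosomal protein genes (blue) and other lists of translation genes (grey), each point 1 gene and each black bar a list's median. The shaded band holds the 5th to 95th percentile of all genes and transcripts, -0.16 to 0.21, and the green lines mark 1.5-fold, which no gene shown reaches.

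Several marker lists of neighbouring tissues and of blood stood farther from 0 than any ribosomal protein list. The 9 striatal markers, all measured, had a median log2 ratio of -0.24, with a summed level of 22434 to 23921 in the ASX RNA and of 29141 to 29971 in the control RNA. The 14 meningeal markers had a median of 0.18, with 38177 to 39100 in the ASX RNA and 34665 to 38059 in the control RNA. The 7 of 9 pituitary markers measured had a median of 0.45, with 2806 to 2866 in the ASX RNA and 1985 to 2231 in the control RNA. Blood markers were measured for 5 of 8 and lay on both sides of 0. The neutrophil genes S100a8 and S100a9 had means of 0.65 and 1.27, and both passed the size rule as higher. The red cell genes Hba-a1, Hbb-bt and Alas2 had -0.46, -0.53 and -0.29, below 0 on each array, and the summed level of all 5 was 8651 to 9197 in the ASX RNA and 11504 to 12835 in the control RNA. Their part in the ribosomal protein values was not tested.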

How the data were processed

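Per the file headers, and in the submitters' processing notes, the scans were extracted with Agilent Feature Extraction 11.0.1.1. The authors deposited the median intensity of each spot and its local background, not normalized. They also deposited a log10 ratio of Cy5 over Cy3 after the software's background subtraction and dye normalization, and a p-value per spot. The deposited value table of the series holds the same log10 ratios. Here, limma 3.58.1 under R 4.3.3 corrected the intensities for background (normexp, offset 50) and normalized each array by loess, with control and outlier spots at weight 0. Each array's ratio was turned to log2(ASX / control) and averaged over a probe's spots. The mean of the arrays is the diet part and their difference divided by 2 the dye part. Levels of each RNA were taken after Aquantile normalization. Accessions were named through RefSeq (GRCm38.p6): 23374 of 41174 probes matched 1 symbol. A gene took its brightest probe among the 30082 that were well above background in both dyes on each array. The extraction files hold median and not mean spot signals.

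Named genes are the 6 highest and 6 lowest members, the 4 widest dye parts, those above 0 on both arrays, members of known role, paralogs with parents, and the extremes of each list. Results of 2 genes that this rule would name are not reported here. Rps15a and the printed start sites were chosen after their values were seen. Members and lists were chosen with earlier results of these data known. The size rule was tested on simulated data with changes larger than those of any member and a dye trend set by brightness alone. That simulation does not show how the rule handles smaller differences or dye parts that differ between probes of like brightness.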

Additional observations from a re-analysis of the deposited data

How the results depend on the processing

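With 1 replicate nothing here was tested, and the limit is the single pair of RNA samples, not signal over background. Over all alternatives with both arrays, 0 members passed the 1.5-fold rule. On array 1 alone 5 were higher (0.58% of all genes and transcripts) and 0 lower. On array 2 alone 0 were higher and 1 lower (0.199% of all). Above and below 0 stood 41 and 38 members on array 1, and 26 and 53 on array 2. The medians of all genes and transcripts were -0.0022 on array 1 and -0.00077 on array 2. The members' median on single arrays was -0.06 to 0.024, the 60S median -0.026 to -0.010. Of other pathway genes 1 passed on each single array. Median centring gave medians of -0.24 for members, -0.23 for 60S and -0.25 for 40S genes, a dye part of 0.27, and 1 member above and 37 below 0 on both arrays. Spike-in scaling gave -0.44, -0.43 and -0.45, a dye part of 0.11, and 0 above and 67 below. The scanner's log ratios and the value table, which repeats them, gave -0.028 for 60S genes and a dye part of -0.065. A loess span of 0.7 gave 0.047 for 60S genes, a dye part of 0.10, and 12 above and 8 below. The 8 members under the 75th percentile of brightness had a median of -0.081, as had their 60S genes, a dye part of -0.067, and 0 above and 4 below. With the mean or median over a gene's probes 3 members were above 0 on both arrays, and the dye part was -0.011 and -0.013. Shares over all genes and transcripts were not counted for these probe averages, the dim probes or the signs on single arrays. The same holds for the pathway genes that passed on single arrays, so none of these counts is set against a background. Of further values for single genes and lists, 850 stayed within the SD between the arrays and 112 moved by more. Some of the 850 could not move. A gene's value on a single array always lies within that SD of its mean. The 1.2-fold rule and the limit to 60S and 40S genes leave these values unchanged. The 850 are therefore no measure of stability. Leaving the ribosomal protein spots out of the loess fit was added after the data were seen. No paired analysis was possible because the labels give 1 group of 2 dye-swapped arrays, taken here as 1 pair of RNA samples, and the results come from no test.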
